A study of Mus musculus with 6 samples.

Results

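Norrin and WNT barrier signalling was followed through 10 genes chosen by symbol: the ligand Ndp, the receptor complex genes Fzd4, Lrp5, Lrp6 and Tspan12, the signal transducers Ctnnb1 and Lef1, and the targets and feedback genes Axin2, Apcdd1 and Tnfrsf19. All 10 were found among the 24421 genes of the count table, and all 10 passed the filter on low counts that left 14362 genes for testing. RNA had been sequenced from isolated retinal endothelial cells of mice with a mixed BL6/CD1 background, collected at postnatal day 7. The protocol given for every sample states that tamoxifen was injected at postnatal day 1. In the 3 Smad4-iECKO samples, floxed Smad4 was combined with Cdh5-CreERT2, a tamoxifen-inducible Cre recombinase under the promoter of the endothelial cadherin gene Cdh5. The 3 Smad4f/f samples carried the floxed alleles and were called wild type by the submitters. Smad4 encodes the shared mediator of TGF-beta and BMP signalling. The labels do not say whether a sample was 1 pup or a pool, so the spread behind each p-value is that between these samples, which may be technical.

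Norrin, the product of Ndp, is a secreted protein made in the retina by Mueller glia that binds the receptor Frizzled4 on endothelial cells. Together with the co-receptor LRP5 or LRP6 and the membrane protein TSPAN12 it stabilises beta-catenin, which enters the nucleus and activates transcription with TCF and LEF factors. In retinal vessels this signal is needed for the deeper capillary layers and for the blood-retina barrier, and mutations of NDP, FZD4, LRP5 and TSPAN12 cause familial exudative vitreoretinopathy or Norrie disease in people.

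Total counts ran from 12633018 to 23164952 in 5 libraries and came to 2233360 in Smad4-iECKO replicate 2, where 3 counts correspond to 1.39 CPM (counts scaled to library size, with TMM factors). Smad4 itself was at 109.5, 152.9 and 157.5 CPM in Smad4f/f and at 128.2, 93.9 and 133.9 CPM in Smad4-iECKO (replicates 1, 2 and 3 of each group, the order used from here on). The groups overlapped (log2 fold change -0.24, standard error 0.29), and the labels do not say which exons were deleted, so this gene count does not check the genotypes. The amount of endothelial RNA varied more between libraries than between groups. A list of 22 endothelial markers, all of them tested and all but Myct1 detected in every library, summed to 11205, 2118 and 6690.4 CPM in Smad4f/f and to 4054, 6322 and 6741 CPM in Smad4-iECKO. Markers of rods were also abundant, with summed levels of 6659 to 12436 CPM in Smad4f/f and 6745 to 9936 CPM in Smad4-iECKO, so the libraries also held RNA of other retinal cells. Titles of 4 libraries, 2 per group, start with 1 prefix (38). The prefix 40 marks replicate 2 of each group, and the labels do not say what the prefix stands for.

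The level of each gene was compared per kilobase of exon, with exon lengths from GENCODE M21. Ctnnb1, which encodes beta-catenin and also serves cell junctions, was the most abundant, with a mean of 186.3 CPM per kilobase over the 6 libraries (range 117.5 to 297.0), and stood above the next gene in all 6 libraries. Apcdd1 (15.5), Tspan12 (15.1), Lrp6 (13.5) and Lrp5 (13.0) followed. Apcdd1 exceeded Tspan12 in 4 libraries and Tspan12 exceeded Lrp6 in 2, so the order of these neighbours was not stable between libraries. Tnfrsf19 (9.65), Axin2 (8.53) and Fzd4 (7.64) were next. Lef1 came to 4.32 CPM per kilobase, below Fzd4 in all 6 libraries. Ndp was the lowest in all 6 libraries, at 1.16 CPM per kilobase (range 0 to 2.38).

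Between the genotypes, the targets Apcdd1 and Tnfrsf19 and the transcription factor gene Lef1 had the lowest fold changes, while the receptor Fzd4 and the co-receptor Lrp6 lay near equality and Lrp5 and Axin2 had higher means. None of the 10 passed the edgeR quasi-likelihood test with Benjamini-Hochberg adjustment over all genes, in which 0 of 14362 genes (0%) were called. The adjusted p was 0.9999 for each of the 10. Only Apcdd1 was under 0.05 before adjustment, as were 188 genes in all, or 1.31%. The log2 fold change was negative for 8 of the 10 genes (80%) and for 51.8% of all tested genes, with medians of -0.31 and -0.017. The 22 endothelial markers were close to the 10 genes in this, with 77.3% negative and a median of -0.34. In CPM the groups overlapped for each of the 10, against 2.83% of tested genes that were lower and 2.49% that were higher in every Smad4-iECKO library.

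**Figure D1:**
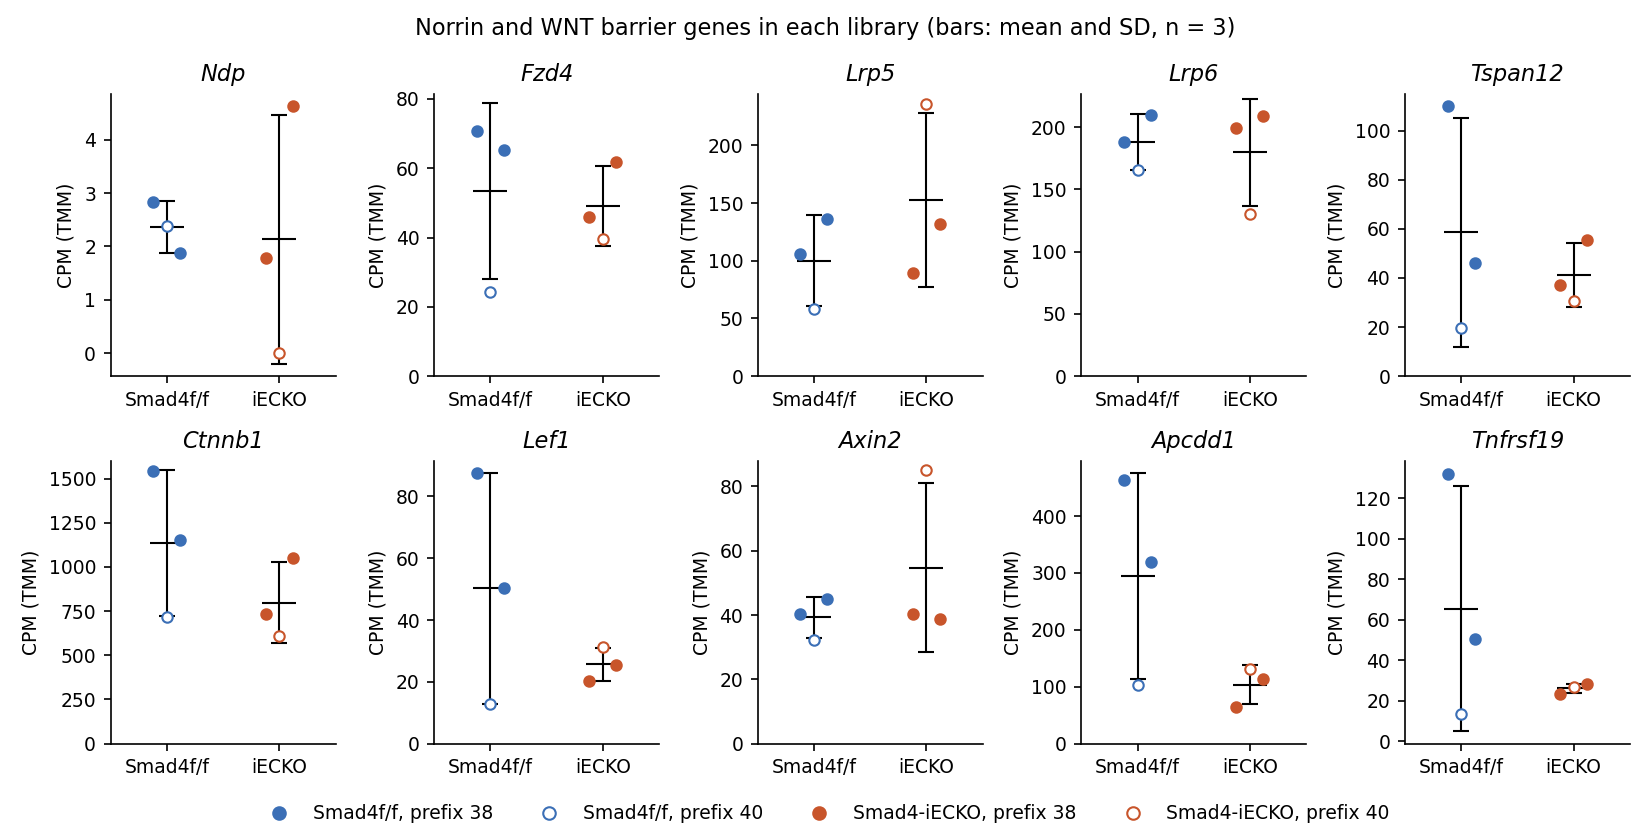
CPM (TMM scaled) of the 10 genes in each library, by group, on linear axes of their own. Filled points are prefix 38, open points prefix 40, and bars give the mean and SD (n = 3). For Apcdd1, Tnfrsf19, Lef1 and Tspan12 the Smad4f/f libraries spread widely, with replicate 2 (open) lowest and replicate 1 highest.

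The ligand gene Ndp (chromosome X, 16885521 to 16911774, minus strand, all positions in mm10) had low counts. Only in Smad4-iECKO replicate 2 did it fall under the floor of 3 counts. The Smad4f/f libraries held 36, 58 and 25 reads of it (2.84, 2.39 and 1.87 CPM), and the Smad4-iECKO libraries 32, 0 and 58 reads (1.78, 0 and 4.62 CPM). The Smad4-iECKO libraries included both the highest and the lowest value, and the 0 in the shallow replicate 2 allows up to 1.39 CPM. The log2 fold change was -0.01 (standard error 0.94), so no difference was detectable at this depth. The 14 Mueller glia markers summed to 1315 to 2486 CPM in Smad4f/f and 1483 to 2479.8 CPM in Smad4-iECKO, with Aqp4 at 0 in at least 1 library. How far these cells contributed the Ndp reads was not tested.

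Fzd4 (chromosome 7, 89404355 to 89413134, plus strand) encodes Frizzled4, the receptor that Norrin binds. It was at 70.8, 24.4 and 65.3 CPM in Smad4f/f and at 46.0, 39.5 and 61.9 CPM in Smad4-iECKO. All Smad4-iECKO values lay inside the Smad4f/f range. Means were 53.5 ± 25.4 and 49.2 ± 11.5 CPM (SD, n = 3 each), and the log2 fold change was -0.12 (standard error 0.42). Tspan12 (chromosome 6, 21771395 to 21852515, minus strand) encodes the tetraspanin that enhances Norrin signalling through Frizzled4. It was at 110.2, 19.6 and 45.9 CPM in Smad4f/f and at 37.3, 30.7 and 55.6 CPM in Smad4-iECKO. Again the Smad4f/f libraries held both extremes, and the log2 fold change was -0.50 (standard error 0.56). It turned to 0.33 without Smad4f/f replicate 1, the library with the most endothelial RNA.

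The co-receptor genes behaved differently from each other across libraries. Lrp5 (chromosome 19, 3584828 to 3686564, minus strand) was at 106.2, 57.8 and 136.4 CPM in Smad4f/f and at 89.5, 236.1 and 132.3 CPM in Smad4-iECKO. Replicate 2 of Smad4-iECKO was the highest of all 6, and the other Smad4-iECKO libraries lay inside the Smad4f/f range. The log2 fold change of 0.60 (standard error 0.44) came to 0.13 without that library and to -0.14 within prefix 38. Lrp6 (chromosome 6, 134446476 to 134566965, minus strand) was the steadiest of the 10 genes in CPM, with a 1.61-fold range over the 6 libraries. It was at 188.4, 165.9 and 210.1 CPM in Smad4f/f and at 199.6, 130.6 and 208.9 CPM in Smad4-iECKO. The same shallow library that was highest for Lrp5 was the lowest for Lrp6, and the log2 fold change was -0.06 (standard error 0.30). The ratio of Lrp5 to Lrp6 CPM was therefore 1.81 in that library and 0.349 to 0.649 in the other 5.

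Ctnnb1 (chromosome 9, 120929216 to 120960507, plus strand) was at 1542, 716 and 1153 CPM in Smad4f/f and at 731, 609.9 and 1052 CPM in Smad4-iECKO. The groups overlapped, with means of 1137 ± 413 and 798 ± 228 CPM and a log2 fold change of -0.51 (standard error 0.40). Lef1 (chromosome 3, 131110471 to 131224356, plus strand), the DNA-binding partner of beta-catenin that is itself a target in these vessels, varied more. It was at 87.6, 12.8 and 50.5 CPM in Smad4f/f and at 20.4, 31.1 and 25.3 CPM in Smad4-iECKO. The Smad4-iECKO libraries lay close together, above Smad4f/f replicate 2 and below the other Smad4f/f libraries. Means were 50.3 ± 37.4 and 25.6 ± 5.39 CPM, with a log2 fold change of -0.98 (standard error 0.59). The difference was -0.32 without Smad4f/f replicate 1, and it was -1.44 when Smad4f/f replicate 2 was left out.

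Apcdd1 (chromosome 18, 62922231 to 62961179, plus strand) encodes a membrane-bound WNT inhibitor that is induced by Norrin signalling in retinal endothelium, and it showed the largest difference of the 10 genes. It was at 462.7, 102.9 and 319.4 CPM in Smad4f/f and at 65.2, 132.0 and 113.5 CPM in Smad4-iECKO. Smad4f/f replicates 1 and 3 stood above every other library, while Smad4f/f replicate 2 lay inside the Smad4-iECKO range. Means were 295 ± 181 and 104 ± 34.5 CPM (SD, n = 3 each), and the log2 fold change was -1.51 (standard error 0.53, edgeR adjusted p = 0.9999). The fitted difference stayed negative without each library in turn, reaching -1.92 when Smad4f/f replicate 2 was left out and -1.04 when Smad4f/f replicate 1 was. In CPM microglia markers moved with the groups: of 16 markers 15 were tested, and 14 of these had positive fold changes. The 16 summed to 40.8 to 71.5 CPM in Smad4f/f and 99.5 to 144.4 CPM in Smad4-iECKO. P2ry12, C1qa and Siglech were at 0 in at least 1 library. Of the 15, 6 were higher in all Smad4-iECKO libraries in CPM, against 2.49% of all tested genes. Relative to the endothelial markers 2 of the 15 were, against 2.19%. Of 8 astrocyte markers, all tested, 6 had positive fold changes (median 0.94). Their sum was 179 to 577 CPM in Smad4f/f and 287 to 1022 CPM in Smad4-iECKO, with Nkain4 at 0 in at least 1 library. In CPM 1 of the 8, Pax2, was higher in all Smad4-iECKO libraries, against 2.49% of all tested genes. Relative to the endothelial markers 2 of the 8 were, Gfap and Igfbp5, against 2.19% of all tested genes. Pax2, Gfap and Igfbp5 each overlapped on the other scale. The part of microglia or astrocytes in the Apcdd1 difference or any other was not tested.

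Tnfrsf19 (chromosome 14, 60963875 to 61046490, minus strand) encodes TROY, a TNF receptor family member and beta-catenin target of brain and retinal endothelium. It was at 132.1 CPM, 13.6 CPM and 50.6 CPM in Smad4f/f and at 23.4, 26.5 and 28.1 CPM in Smad4-iECKO. The 9.73-fold range over the 6 libraries was the widest of the genes detected in all of them, and it came from the Smad4f/f group, which held both extremes. Means were 65.4 ± 60.7 and 26.0 ± 2.35 CPM, a log2 fold change of -1.33 (standard error 0.66). Without Smad4f/f replicate 1 the difference was -0.31. Axin2 (chromosome 11, 108920349 to 108950783, plus strand), the scaffold protein gene that beta-catenin induces in many tissues as negative feedback, did not share this pattern. It was at 40.5, 32.3 and 45.0 CPM in Smad4f/f and at 40.4, 85.1 and 38.7 CPM in Smad4-iECKO. A single library, Smad4-iECKO replicate 2, stood above the other 5. The log2 fold change of 0.47 (standard error 0.38) was -0.01 without it and -0.12 within prefix 38. In the library where Axin2 and Lrp5 were highest, 6 fibroblast markers summed to 737 CPM, against 55.7 to 178.7 CPM in the other 5 libraries, with Dcn and Lum at 0 in at least 1 library. That library was also the shallowest, and the part of either in the values was not tested. By group, 4 of the 6 fibroblast markers were tested, all with positive fold changes (median 1.58). Col1a1 and Col1a2 were higher in all Smad4-iECKO libraries in CPM, against 2.49% of all tested genes. Relative to the endothelial list Col1a1 was and Col1a2 overlapped, against 2.19% of all tested genes.

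Promoter sequences are shown for Tnfrsf19 and Lef1, which were among the genes with the lowest fold changes, and for Axin2, which did not follow them. RefSeq starts on GRCm38.p6 were used for 7 of the 10 genes, with 12 windows in all (4 for Lef1, 2 each for Ctnnb1 and Tnfrsf19). Apcdd1, Lrp5 and Lrp6 were not searched. In the windows, the 250 bases before each start were searched on both strands for CTTTGAT and CTTTGAA, cores bound by TCF and LEF factors, and for GGCGCC and GTCTAGAC, motifs bound by SMAD proteins. In the lines below, capitals mark a match, and each sequence runs to the base before the start. The first Tnfrsf19 window (minus strand) lies inside the longer transcripts of the gene and has ATCAAAG, the reverse complement of CTTTGAT, beginning 202 bases before the start. The second Tnfrsf19 window and the Lef1 window shown (plus strand) each have GGCGCC. Another Lef1 window overlapping the one shown has the same match, and the other 2 Lef1 windows have none. The Axin2 window (plus strand) has no match. A match describes letters in the window and does not show binding.
Tnfrsf19 chr14:61037988-61038237: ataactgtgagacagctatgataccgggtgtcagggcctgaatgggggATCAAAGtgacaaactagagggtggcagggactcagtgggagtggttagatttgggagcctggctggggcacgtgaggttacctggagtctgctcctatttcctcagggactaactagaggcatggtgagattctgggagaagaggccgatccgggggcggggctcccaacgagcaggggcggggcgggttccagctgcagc
Tnfrsf19 chr14:61046856-61047105: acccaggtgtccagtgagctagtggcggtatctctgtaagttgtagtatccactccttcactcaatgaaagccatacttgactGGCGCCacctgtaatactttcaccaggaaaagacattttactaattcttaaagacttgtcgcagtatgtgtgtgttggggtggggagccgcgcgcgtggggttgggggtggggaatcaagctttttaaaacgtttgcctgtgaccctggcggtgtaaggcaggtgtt
Lef1 chr3:131110047-131110296: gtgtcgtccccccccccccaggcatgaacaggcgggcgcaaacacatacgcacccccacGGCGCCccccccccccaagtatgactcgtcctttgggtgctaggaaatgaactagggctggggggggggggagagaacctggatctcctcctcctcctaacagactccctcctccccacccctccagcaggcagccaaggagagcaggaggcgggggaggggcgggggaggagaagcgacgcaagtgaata
Axin2 chr11:108920099-108920348: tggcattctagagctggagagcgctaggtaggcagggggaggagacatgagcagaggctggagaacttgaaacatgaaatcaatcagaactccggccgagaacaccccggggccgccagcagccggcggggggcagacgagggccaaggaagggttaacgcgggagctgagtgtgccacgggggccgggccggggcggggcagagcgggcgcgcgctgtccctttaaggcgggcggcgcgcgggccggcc
A TCF or LEF core was in 1 of the 12 windows, and in 7.48% of all 32817 mouse windows. GGCGCC was in 5 of the 12 windows, which belong to Ctnnb1, Fzd4, Lef1 and Tnfrsf19, and in 9.59% of all windows. Windows of 1 gene can overlap, as the 2 Lef1 windows with GGCGCC do, so the 12 are not independent. GTCTAGAC was in none of the windows of these genes and in 0.168% of all windows.

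Because endothelial RNA varied between libraries, each gene was also expressed relative to the endothelial list, as its log2 CPM minus the mean log2 CPM of the 22 markers in the same library. That mean was highest in Smad4f/f replicate 1, 6.03-fold above Smad4f/f replicate 2. The marker Myct1 had 0 reads in Smad4-iECKO replicate 2, at -9.13 relative to the list against -3.69 to -2.62 elsewhere. It lowers the mean of that library and so raises every relative value there. In bulk samples fewer endothelial cells and less RNA per endothelial cell cannot be told apart. On this scale Apcdd1 was lower in every Smad4-iECKO library. Its values were 0.46, 0.89 and 0.95 in Smad4f/f, against -0.71, 0.02 and -0.59 in Smad4-iECKO. The means of 0.77 ± 0.26 and -0.43 ± 0.39 differ by -1.19 log2 units, a level 0.437 times that of Smad4f/f. Tnfrsf19 was also lower throughout, at -1.34, -2.03 and -1.71 against -2.19, -2.28 and -2.60, a mean difference of -0.66 with a narrow gap between the groups. These were 2 of the 10 genes, against 0.752% of tested genes without overlap in that direction. Of the 22 endothelial markers, which set this scale, 3 were lower and 3 higher without overlap. None of the 10 was higher in all Smad4-iECKO libraries, as 2.19% of tested genes were. Most tested genes spread more widely on this scale than in CPM. The share of endothelial markers that were lower without overlap was nearer to that of the 10 genes than the share of all tested genes was.

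Lef1 relative to the endothelial list was at -1.94, -2.12 and -1.71 in Smad4f/f and at -2.39, -2.05 and -2.75 in Smad4-iECKO, and the groups overlapped through the prefix 40 libraries. With Pecam1 and Cdh5 alone as the reference, Lef1 too was lower in every Smad4-iECKO library, giving 3 genes in place of 2. The share of all tested genes was not counted against these 2 markers. Relative to the whole list, Pecam1 and Cdh5 themselves had higher means in Smad4-iECKO, by 0.14 and 0.39 log2 units. Their use therefore lowers the Smad4-iECKO mean of every gene. This reference also leaves out Myct1, whose 0 reads raise the values of Smad4-iECKO replicate 2 relative to the whole list. Whether Lef1 overlaps on the list without Myct1 was not tested. The receptor genes did not separate relative to the whole list. Tspan12 was at -1.61, -1.50 and -1.85 against -1.52, -2.08 and -1.62 on this log2 scale, and its 5.62-fold range in CPM over the 6 libraries shrank to 1.49-fold. Fzd4 was at -2.24, -1.19 and -1.34 against -1.21, -1.71 and -1.46, with a mean difference of 0.13. The range over libraries narrowed for 5 of the 10 genes (Fzd4, Tspan12, Lef1, Apcdd1 and Tnfrsf19) and for 14.5% of all tested genes. It widened for Lrp6, from 1.61-fold to 5.31-fold, and for Axin2, from 2.63-fold to 5.43-fold. Over the 6 libraries the Pearson correlation of log2 CPM with the endothelial list was 0.965 for Tspan12, 0.936 for Tnfrsf19, 0.930 for Lef1 and 0.916 for Fzd4, and 0.802 for Ctnnb1 and 0.743 for Apcdd1. It was 0.456 for Lrp5, 0.305 for Lrp6, 0.166 for Axin2 and 0.158 for Ndp. Both measures of a pair come from the same 6 libraries, which differ in endothelial RNA and depth, so these values are a description only.

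**Figure D2:**
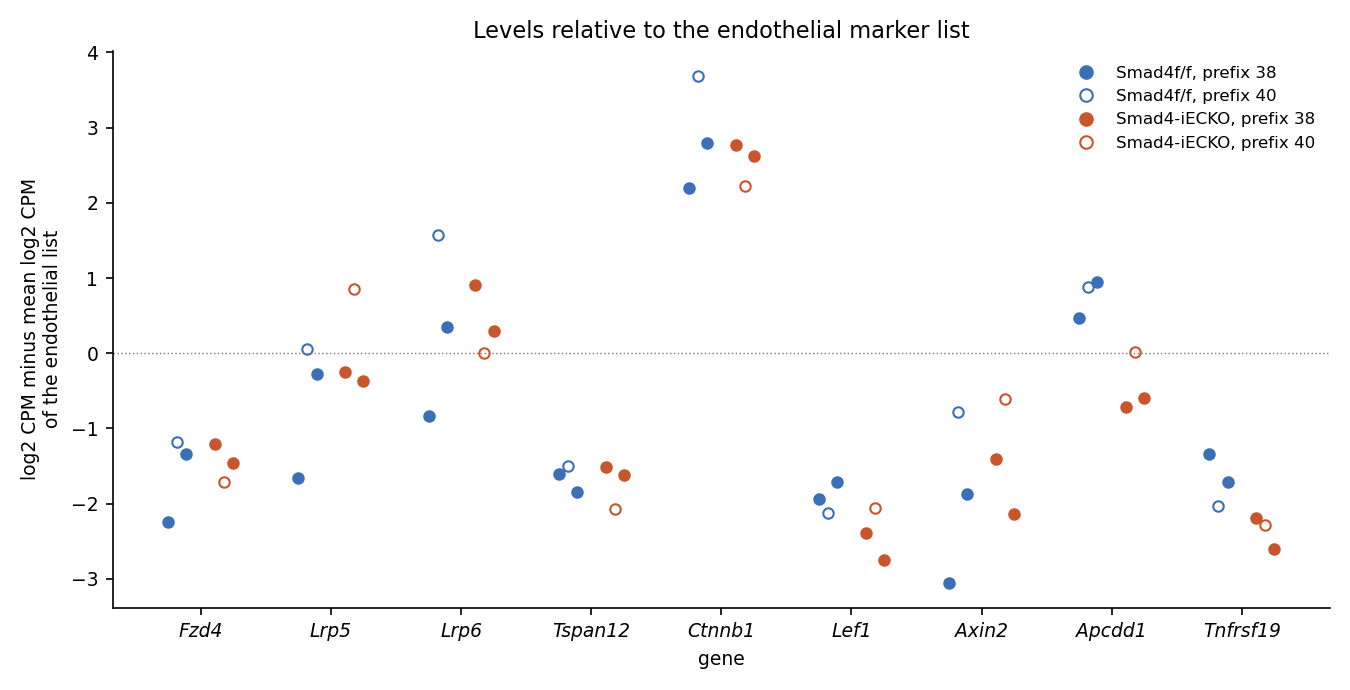
Log2 CPM of 9 genes minus the mean log2 CPM of the 22 endothelial markers in the same library (Ndp, with a library at 0, is left out). Filled points are prefix 38 and open points prefix 40. Apcdd1 and Tnfrsf19 have all Smad4-iECKO points below all Smad4f/f points, while Fzd4 and Tspan12 points are mixed.

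Ratios within a library need no scaling between libraries. The ratio of Apcdd1 to Fzd4 CPM was 6.53, 4.22 and 4.89 in Smad4f/f, against 1.42, 3.34 and 1.83 in Smad4-iECKO, so the groups did not overlap. The means were 5.21 ± 1.19 and 2.20 ± 1.01 (SD, n = 3 each). With Tspan12 in place of Fzd4 the groups overlapped, at 4.20, 5.24 and 6.95 against 1.75, 4.30 and 2.04. The ratio of Tnfrsf19 to Fzd4 was 1.87, 0.556 and 0.774 against 0.509, 0.671 and 0.453, and that of Lef1 to Fzd4 was 1.24, 0.523 and 0.773 against 0.443, 0.788 and 0.409, both with overlap. The ratio of Axin2 to Fzd4 also overlapped, at 0.571, 1.32 and 0.688 against 0.877, 2.15 and 0.625. The ratios of Tnfrsf19, Lef1 and Axin2 to Tspan12 overlapped as well. Only the ratio of Apcdd1 to Fzd4 separated the groups. How often ratios of other genes to Fzd4 did so was not counted.

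In CPM the title prefixes gave opposite directions for Apcdd1, Tnfrsf19 and Lef1. Within prefix 38 the log2 ratio of the group means was -2.13 for Apcdd1, -1.83 for Tnfrsf19 and -1.59 for Lef1. Between the single libraries of prefix 40 it was 0.36, 0.96 and 1.29, with no replicate. Relative to the endothelial list, the prefix 40 difference was -0.87 for Apcdd1, -0.25 for Tnfrsf19 and 0.07 for Lef1, so Apcdd1 and Tnfrsf19 were then lower in both prefixes. The 0 reads of Myct1 in Smad4-iECKO replicate 2 raise each of these prefix 40 values. Fitted on the 4 libraries of prefix 38 alone, the log2 fold changes were -2.15 (standard error 0.37), -1.85 (0.46) and -1.61 (0.34) in that order, with edgeR adjusted p of 0.516, 0.979 and 0.766. With the endothelial list as a covariate over all 6 libraries they were -1.14 (0.33), -0.58 (0.30) and -0.42 (0.33), with an edgeR adjusted p of 0.9997 for each. With each library scaled to the endothelial list they were -1.17 (0.94), -0.69 (0.90) and -0.46 (0.90).

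**Figure D3:**
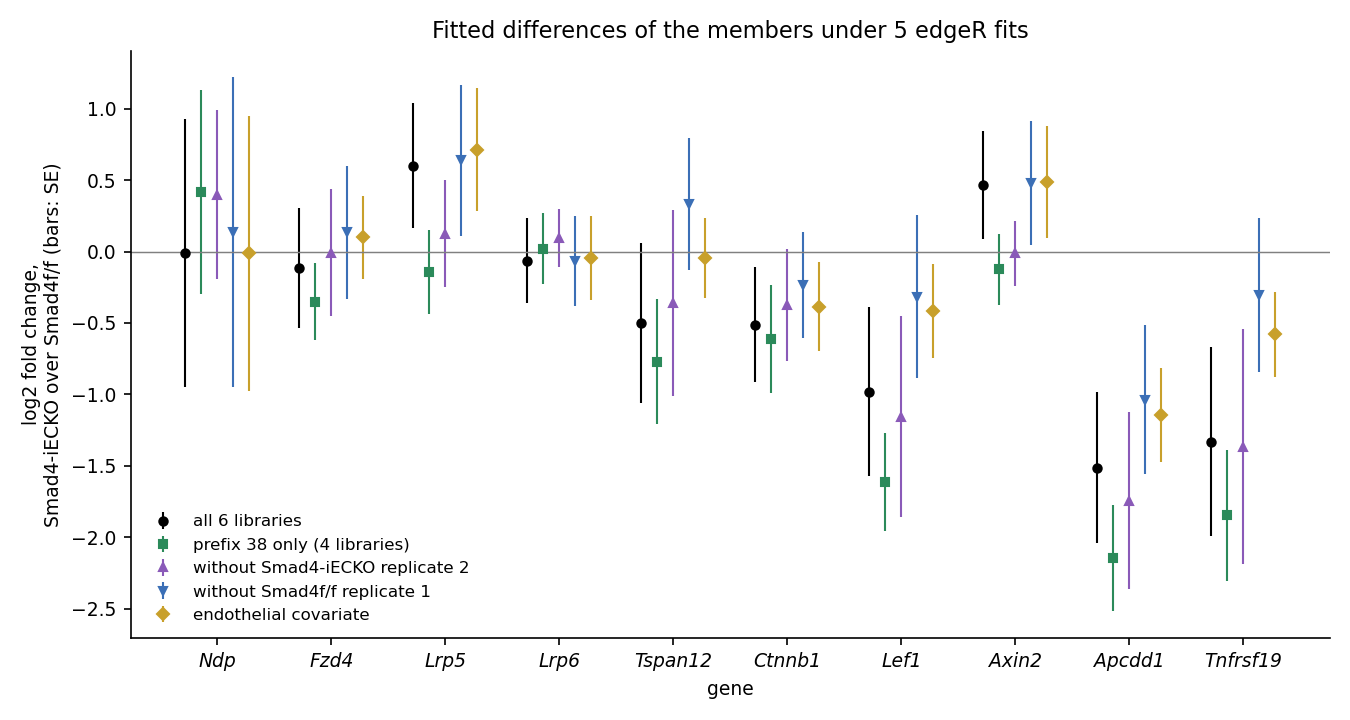
Log2 fold change (Smad4-iECKO over Smad4f/f) of each gene with its standard error under 5 edgeR fits, marked by shape and color. Apcdd1, Tnfrsf19 and Lef1 lie below 0 in each of the 5, while Lrp5 and Axin2 fall below 0 within prefix 38.

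The rest of the pathway was described through role lists, which held 100 tested genes besides these 10. None passed the edgeR test, and 52 of the 100 had negative fold changes, a share close to that of all genes. Of 19 WNT ligand genes only 5 passed the filter on low counts. Wnt5a, a ligand of the beta-catenin-independent branch, was at 6.37 ± 0.690 CPM in Smad4f/f and 6.96 ± 3.61 CPM in Smad4-iECKO. Wnt2b was at 1.46 ± 0.323 and 2.35 ± 0.380 CPM, without overlap, on 18, 28 and 24 against 38, 6 and 27 reads. Relative to the endothelial list it overlapped. In CPM 2.49% of all tested genes were higher without overlap. Smad4-iECKO replicate 2 held 6 reads of either ligand gene, and 3 counts there correspond to 1.39 CPM. Of the 17 tested receptors 10 had positive and 7 negative fold changes. Fzd6 was at 221 ± 150 and 121.5 ± 33.1 CPM, with overlap. Relative to the endothelial list it was lower in all Smad4-iECKO libraries, as were 0.752% of all tested genes. The gap was narrow, from 0.14 in Smad4f/f replicate 1 to 0.07 in Smad4-iECKO replicate 2. Lrp4, the most abundant of these receptors per kilobase, was at 1087 ± 319 and 1274 ± 290 CPM. Adgra2, the co-activator GPR124 of WNT7 signalling in brain endothelium, was at 67.7 ± 10.3 and 61.4 ± 4.15 CPM.

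Inhibitors split 6 higher to 5 lower in sign. Dkk2, a secreted LRP antagonist, was at 10.3 ± 9.03 and 3.78 ± 2.08 CPM, and Kremen1, a receptor of DKK proteins, was at 60.3 ± 4.52 and 76.9 ± 9.55 CPM, without overlap. The 20 dishevelled and destruction complex genes had 9 positive and 11 negative fold changes and a median of -0.02, with Axin1 at 63.5 ± 16.1 and 90.2 ± 39.1 CPM. Among 16 TCF factors and nuclear partners, Tcf7, a factor related to Lef1, was at 22.2 ± 14.9 and 10.6 ± 7.17 CPM. It was lower in all Smad4-iECKO libraries relative to the endothelial list, by a narrow gap. Its lowest Smad4f/f value was -3.20 and its highest Smad4-iECKO value -3.24 (replicate 3 of each), and Smad4-iECKO replicate 2 held 8 reads. Aes, a corepressor of the Groucho family, was at 146.8 ± 19.7 and 112.8 ± 7.92 CPM, without overlap. Among 10 tested general beta-catenin targets, 6 had positive and 4 negative fold changes. Ccnd1, the gene of cyclin D1, was at 156.9 ± 34.2 CPM in Smad4f/f and 262.1 ± 49.7 CPM in Smad4-iECKO, without overlap (log2 fold change 0.74, standard error 0.31). Sp5, a direct WNT target, was at 2.09 ± 1.28 and 0.931 ± 0.265 CPM, with 2 reads in Smad4-iECKO replicate 2, under the floor of 3 counts. Kremen1, Aes and Ccnd1, without overlap in CPM, overlapped relative to the endothelial list, while Tcf7 overlapped in CPM. Over all tested genes 2.83% were lower and 2.49% higher without overlap in CPM. Relative to the list these shares were 0.752% and 2.19%.

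Of 15 genes that beta-catenin controls in retinal and brain vessels, all tested, 12 had negative fold changes (80%) and the median was -0.41. The endothelial list had a like share, with 17 of 22 negative and a median of -0.34. Slc38a5, an amino acid transporter of retinal endothelium, was at 233.9, 26.1 and 117.0 CPM in Smad4f/f and at 12.4, 31.1 and 25.0 CPM in Smad4-iECKO, a log2 fold change of -2.48 (standard error 0.71). Mfsd2a, the lipid transporter that limits transcytosis, was at 281.2, 42.5 and 180.1 CPM against 20.6, 58.1 and 50.5 CPM (log2 fold change -1.98, standard error 0.65). Both resembled Apcdd1 in having Smad4f/f replicates 1 and 3 far above the rest.

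Plvap, the diaphragm protein of fenestrated and leaky vessels that beta-catenin holds down, went the other way. It was at 22.0, 5.31 and 16.4 CPM in Smad4f/f and at 32.5, 94.4 and 65.6 CPM in Smad4-iECKO, without overlap, a log2 fold change of 2.13 (standard error 0.57). Relative to the endothelial list, 6 of the 15 were lower in every Smad4-iECKO library, and Plvap was higher. Sox17, Slc38a5, Mfsd2a, Abcb1a and Foxf2 were among the 6. On that scale 0.752% of all tested genes were lower and 2.19% higher without overlap. Of the 22 endothelial markers 3 were lower and 3 higher. Cldn5, the main claudin of endothelial tight junctions, overlapped, at 1105, 151.0 and 448.7 CPM against 157.6, 871.1 and 257.2 CPM. Of 6 tested further genes of familial exudative vitreoretinopathy, 5 had negative fold changes, with a median of -0.15 and no separation of the groups. None of these genes passed the edgeR test after adjustment.

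**Figure D4:**
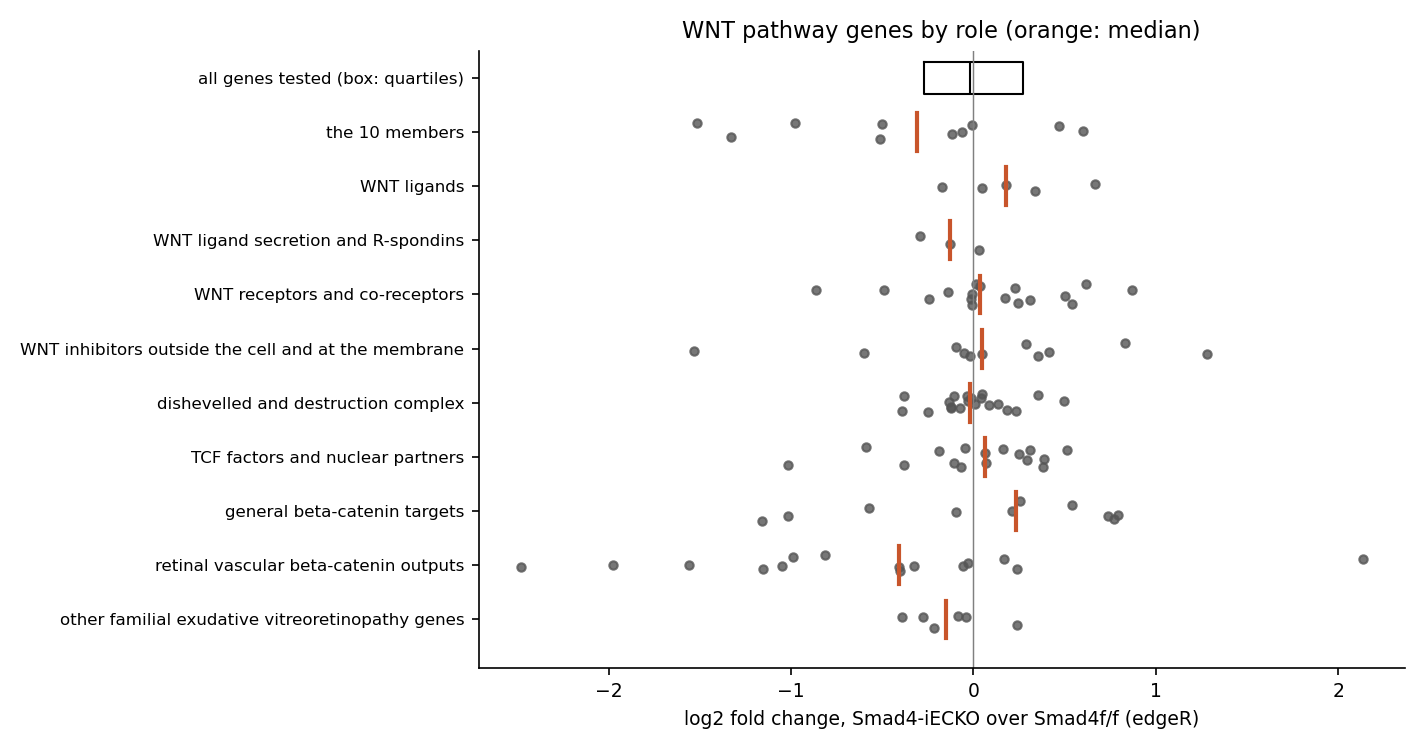
Log2 fold change (Smad4-iECKO over Smad4f/f, edgeR) of the 10 genes and of the tested genes in each role list, with points for genes and orange lines for medians. The box gives the quartiles and median of all 14362 tested genes. The retinal vascular outputs have a median of -0.41 with Plvap alone at 2.13, and the other role lists have medians from -0.15 to 0.23.

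Of all tested genes, the 3 whose log2 CPM was most like that of Apcdd1 over the 6 libraries were Mfsd2a (Pearson r = 0.998), Slc38a5 (0.997) and Slc22a8 (0.995), an organic anion transporter. For Lef1 they were Btd, Ctsh and Wfdc1 (0.992 to 0.993), for Tnfrsf19 Cdkn2c, AU021092 and Gpd2 (0.994 each), and for Fzd4 Lats2, Slc4a1 and Chst11 (0.990 to 0.991). The genes most like Axin2 were Itgb5 (0.9995), Zfp524 (0.997) and Pde3a (0.992), and those most like Ndp were Abat (0.998), Sertad2 (0.994) and Iars2 (0.993). With 6 libraries and 14362 genes such values are a description of likeness only.

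The authors' deposited table gives other calls for the same genes. In the authors' deposited table Apcdd1 has a log2 fold change of -1.23 (standard error 0.262, adjusted p = 0.000135) and Tnfrsf19 of -0.97 (0.302, adjusted p = 0.0163). These are 2 of the 10 genes, both lower, where the authors' deposited table calls 5.69% of its genes lower and 13.4% in either direction. Next in the authors' deposited table are Lef1 (-0.75, adjusted p = 0.0553), Ctnnb1 (-0.47, adjusted p = 0.0624), Lrp5 (0.54, adjusted p = 0.0949) and Axin2 (0.43, adjusted p = 0.0984). The count table held 18 columns, 3 for each sample, and the 3 columns of a sample were identical in all 24421 genes. Which columns entered the authors' comparison is not given in the sources used here.

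DESeq2 was run both ways. With each sample entered once it called 0.0611% of genes and none of the 10, with Apcdd1 at an unadjusted p of 0.00549 (standard error 0.541) and Tnfrsf19 at 0.0422 (standard error 0.652). With all 18 columns entered as samples it called 12.1% of genes, among them Apcdd1 (log2 fold change -1.50, DESeq2 adjusted p = 0.000157, standard error 0.318) and Tnfrsf19 (-1.32, DESeq2 adjusted p = 0.0171, standard error 0.410). The standard errors of the 10 genes were 1.59 to 2.92 times as large with 6 samples as with 18 columns. Identical columns of a sample are not replicates. The p-values from 18 columns therefore understate the spread between samples and give no support to a call. For each of the 10 genes the p-value in the authors' deposited table was 0.980 to 1.06 times the one from 18 columns.

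**Figure D5:**
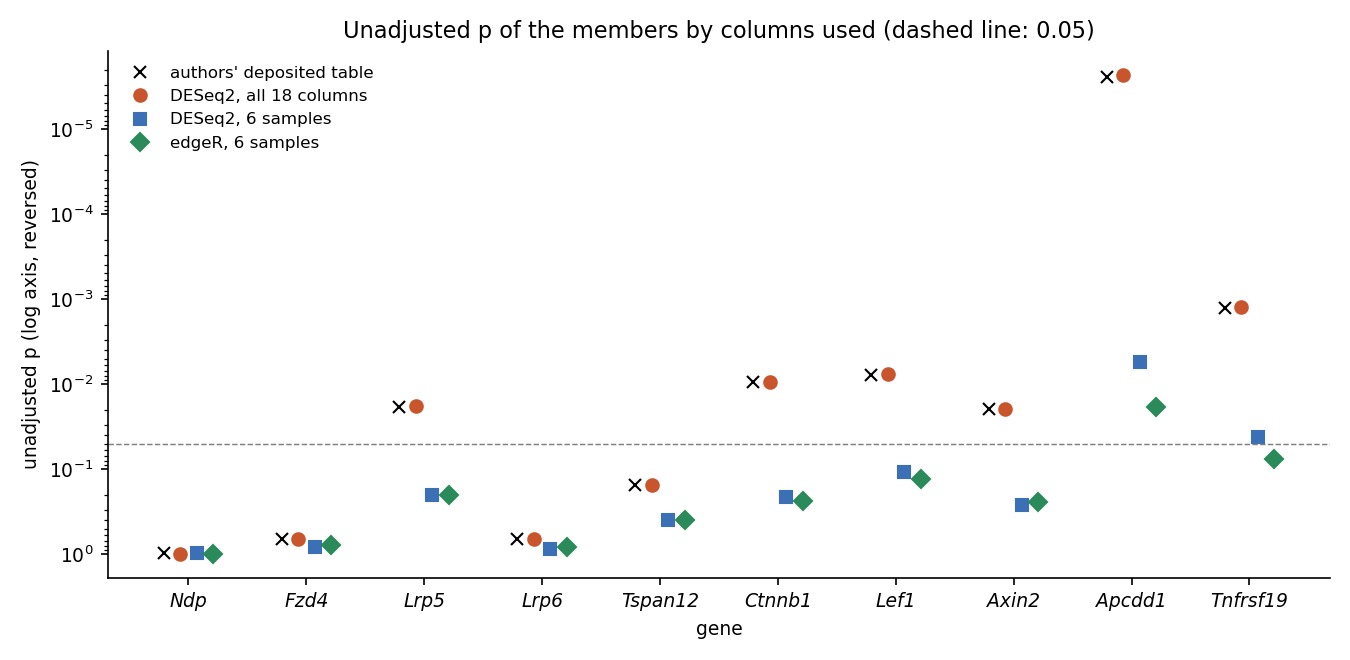
Unadjusted p-values of the 10 genes on a reversed log axis, from the authors' deposited table, DESeq2 on 18 columns, DESeq2 on 6 samples and edgeR, with a dashed line at 0.05. The deposited values lie on those from 18 columns, and the tests on 6 samples lie nearer to 1 for all genes but Ndp, where all are near 1.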

How the data were processed

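Per the labels' protocols the libraries came from a TruSeq RNA v2 kit (Illumina). The submitters' processing notes list STAR, DESeq2 and mm10. The sources used here do not give the counting tool, the annotation or the use of strand. Exons of Axin2, Ctnnb1, Lef1 and Tspan12 overlap genes on the opposite strand. The authors deposited whole-number read counts per gene in 18 columns, and a comparison table with a mean normalized signal, log2 fold changes with standard errors, a score for the test and p-values, per the file headers. Each sample entered every test once, unless 18 columns are named.

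Groups came from the genotype label, and replicate numbers follow the accession order, so they pair nothing. Counts were tested in R 4.3.3 with the quasi-likelihood F-test of edgeR 4.0.16, TMM scaling, filterByExpr (minimum count 10, minimum total 15) and Benjamini-Hochberg adjusted p under 0.05. A standard error is the log2 fold change divided by the square root of F. Unless a tool is named, log2 fold changes are from this fit. The prior for relative levels was 0.5 reads. DESeq2 1.42.0, limma-voom (limma 3.58.1), other scalings and filters, the title prefix as a block, prefix 38 alone, thinning and leaving out each library were alternatives.

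The 10 genes and all lists were chosen with earlier results of these data known. Named genes were the 10, Smad4, a set of marker genes, the 3 smallest p-values and the most abundant gene of each role or cell type list, and the 3 genes most like 6 of the 10. Not all of them are described, and 1 gene that the rule names is not reported here. Sox17, Abcb1a, Foxf2 and Adgra2 were added to complete counts or by role, after their values were seen. The floor of 3 counts was 1.39 CPM in Smad4-iECKO replicate 2 and 0.123 to 0.239 CPM elsewhere, and covers counting error only. Simulated data with known changes were used to check the tests. Positions and exon lengths are from GENCODE M21. Promoters of Apcdd1, Lrp5 and Lrp6 were not analysed here. Figures were drawn with matplotlib 3.10.9.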

Additional observations from a re-analysis of the deposited data

How the results depend on the processing

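Over 188 log2 fold changes of the 10 genes under the alternatives, 164 kept their direction and side of the threshold, 22 changed sign and 2 passed the threshold, those of Apcdd1 (-1.50) and Tnfrsf19 (-1.32) by DESeq2 on 18 columns. That run counts identical columns of a sample as replicates, so its calls are not support. Apcdd1, Tnfrsf19, Lef1 and Ctnnb1 were negative in each of their 19 alternatives. The number of genes called over all genes was 0 in every edgeR fit, 12 by DESeq2, 8 by limma-voom with quality weights and 2235 by DESeq2 on 18 columns, and 0 without each library in turn. Signs changed by limma-voom for Ndp (0.25), Fzd4 (0.019), Lrp6 (0.021), Tspan12 (0.14) and Axin2 (-0.022), and within prefix 38 for Ndp (0.42), Lrp5 (-0.14), Lrp6 (0.021) and Axin2 (-0.12). They also changed for Fzd4 when scaled to the endothelial list (0.072) or with that list as a covariate (0.10), and for Ndp with upper-quartile scaling (0.0021) or DESeq2 on 18 columns (0.0045). Leaving out each library in turn gave -1.08 to 0.40 for Ndp, -0.47 to 0.14 for Fzd4, -0.19 to 0.094 for Lrp6, -0.92 to 0.33 for Tspan12 and -0.011 to 0.66 for Axin2. Where not stated otherwise, the cause was not tested. Besides the 10 genes, 2 of the 100 tested genes of the role lists were lower and 4 higher without overlap in CPM. These counts were near the shares of all tested genes, 2.83% and 2.49%. They became 1 and 5 by DESeq2. Scaled to the endothelial list they became 9 and 1, against 0.752% and 2.19% of all tested genes. That scaling moved the median of all genes to -0.24. No paired analysis was possible because replicate numbers were given in accession order. With the title prefix as a block Apcdd1 was at -1.35. Depth limits Ndp most, and Smad4-iECKO replicate 2 has the fewest counts.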
